A study of Mus musculus with 19 samples.

Results

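Bulk RNA-seq of mouse liver was used to ask whether the RNA of cells other than hepatocytes differed after Raly, an RNA-binding protein of the hnRNP family, was deleted in hepatocytes. The genes described are 36 markers of non-hepatocyte liver cells, taken by symbol from the 24054 rows of the deposited gene table. They comprised 8 markers of Kupffer cells and other macrophages, 9 of endothelium, 9 of stellate and other mesenchymal cells, 5 of bile duct epithelium and 5 of leukocytes. All 36 symbols were found in the table and in the gene annotation. The comparison was of 6 livers. The L-RalyKO group was 3 Raly flox/flox mice given AAV8.TBG.Cre, and the control group was 3 Raly flox/flox mice given AAV8.TBG.GFP. Every animal therefore carried the floxed allele and received an adeno-associated virus, although the labels list the latter group as wild type. The TBG promoter drives Cre in hepatocytes, so the markers belong to cells that the virus was not meant to recombine. The methods give C57BL/6 littermates on chow, male unless stated otherwise, killed 4 weeks after injection, and no age is given for these animals in the sources used here.

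Hepatocytes make up most of the liver's mass, and the remaining cells line and support the blood spaces between them. Kupffer cells are the resident macrophages of the sinusoids and clear particles from portal blood. Sinusoidal endothelial cells form the fenestrated vessel wall and take up waste molecules through scavenger receptors. Stellate cells lie beneath that wall, store vitamin A as retinyl esters and lay down collagen when activated, whereas cholangiocytes line the bile ducts, and lymphocytes and monocytes pass through with the blood. In bulk tissue fewer cells of a type and less RNA per cell cannot be told apart.

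A value is the number of reads of a gene per 1000000 reads of effective library size, here called scaled reads, and it is not divided by gene length. Between 28302983 and 38052705 reads per mouse fell on genes, so that 3 reads correspond to a value between 0.0789 and 0.105. The hepatocyte marker Alb, which encodes albumin, stood between 63858 and 71897 in the controls and between 70091 and 70819 in L-RalyKO liver. Raly had values of 50.1, 48.6 and 46.8 in controls 1, 2 and 3 and of 6.34, 6.61 and 7.39 in L-RalyKO mice 1, 2 and 3 (48.5 ± 1.67 against 6.78 ± 0.546, SD, n = 3 each, log2 fold change −2.67, limma adjusted p = 6.92e-07). Every library thus matched its label for the targeted gene. Values below follow this order of mice, and fold changes are L-RalyKO minus control on log2(value + 1), which understates the change of low genes. Tests used limma across the 11580 genes whose mean value reached 1, and p values were adjusted over all of these.

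No marker passed the adjusted threshold. Of the 36 markers 30 were abundant enough to be tested, and 0 had a limma adjusted p under 0.05, where 6.55% of all genes tested did (758 of 11580). At an unadjusted p under 0.05 there were 3, namely Sox9, Col1a2 and Col3a1, all higher in L-RalyKO liver, against 22.7% of all genes (11.8% higher). With edgeR, run on reads recovered from the values, 0 were also called and 2 had an unadjusted p under 0.05, against 6.68% and 22.3% of all genes. DESeq2 on the same reads called 2, Sox9 and Col1a2, both higher, against 9.25% of all genes (4.69% higher). The estimates were positive for 11 markers and negative for 19, with a median of −0.03 beside 0.00 over all genes. On log2(value + 1) the 95% interval lay within 2-fold in either direction for all 30 tested markers and within 1.5-fold for 23. The other 7 were Marco, Cd14, Col1a1, Col1a2, Col3a1, Lrat and Sox9. These are folds of value + 1, so for low markers they do not bound the fold of the values themselves. With a pseudocount of 0.1 in place of 1, Cd14 moved from −0.38 to −0.54 and Sox9 from 0.55 to 0.68.

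**Figure D1:**
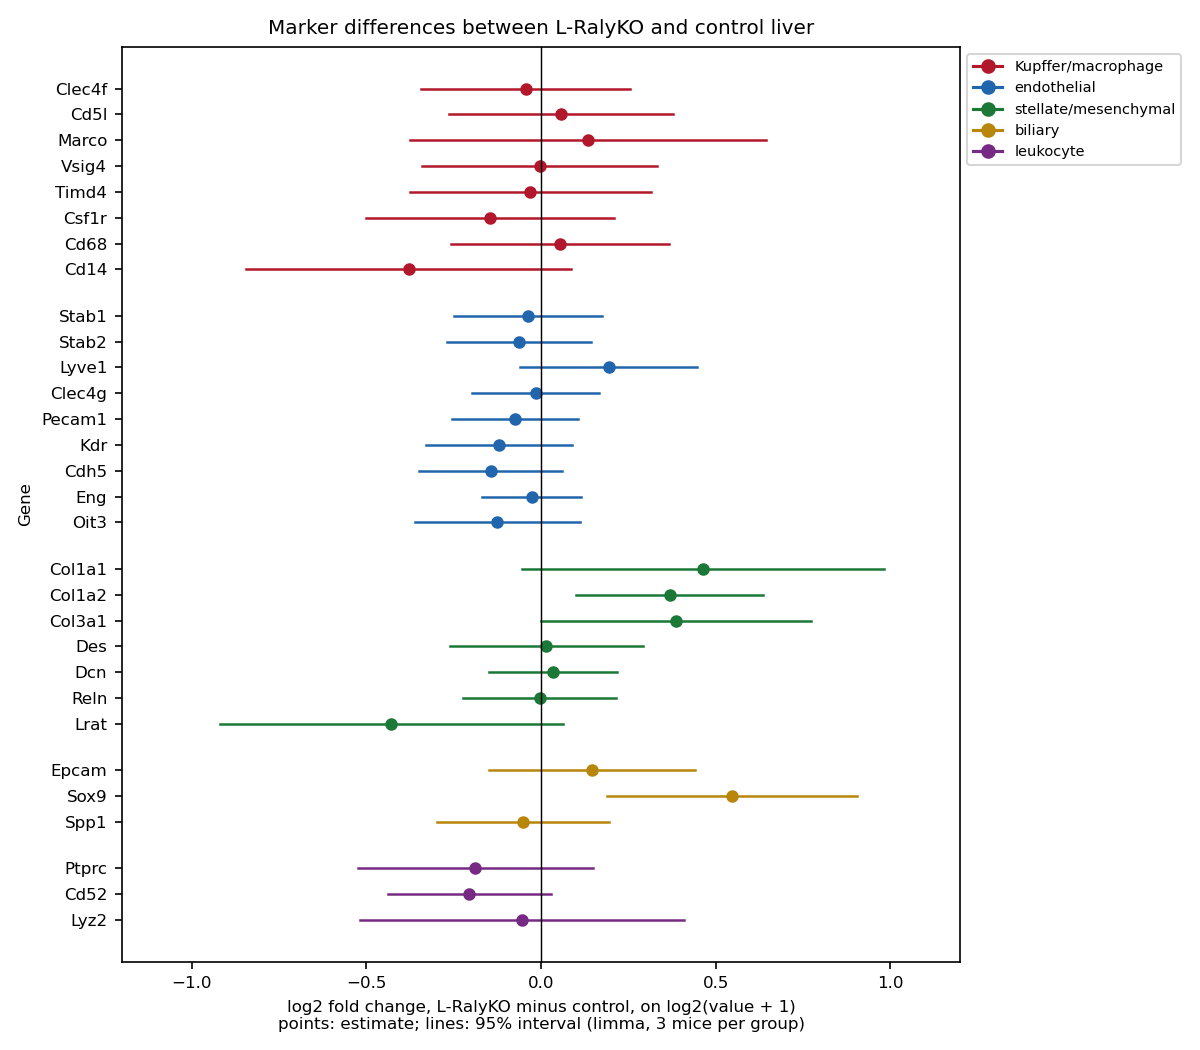
Log2 fold change of the 30 tested markers (x axis, L-RalyKO minus control on log2(value + 1)), 1 row per gene, coloured by cell class. Points are limma estimates and lines 95% intervals from 3 mice per group. The intervals of Sox9 and Col1a2 lie clear of 0 and that of Col3a1 touches it, and the other 27 span it.

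The sequences that follow are those of 4 Kupffer cell genes whose values ranked the controls alike. Marco, Csf1r and Cd68 ranked the controls in the same order and are not printed. The sequences show the start of the 4 genes. Each is the 100 bases before the transcription start in RefSeq (mouse build GRCm38.p6), written 5′ to 3′ on the gene's strand. Capitals mark GAGGAA, a core of sites bound by the myeloid transcription factor PU.1, or its reverse complement TTCCTC. Clec4f lies at chr6:83656117-83656216 (− strand), Cd5l at chr3:87357781-87357880 (+ strand), Vsig4 at chrX:96293439-96293538 (− strand) and Timd4 at chr11:46810699-46810798 (+ strand).
Clec4f: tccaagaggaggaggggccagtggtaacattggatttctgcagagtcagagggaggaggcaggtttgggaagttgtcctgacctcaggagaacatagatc
Cd5l: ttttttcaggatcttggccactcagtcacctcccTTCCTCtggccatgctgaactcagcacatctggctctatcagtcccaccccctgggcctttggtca
Vsig4: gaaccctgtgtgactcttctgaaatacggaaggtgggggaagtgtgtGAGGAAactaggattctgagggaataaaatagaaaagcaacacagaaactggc
Timd4: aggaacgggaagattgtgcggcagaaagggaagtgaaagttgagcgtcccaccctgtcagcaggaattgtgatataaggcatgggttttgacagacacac

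The letters occur in the stretches of Cd5l and Vsig4 and not in those of Clec4f and Timd4. Over the 300 bases from 250 before to 50 after the start, either strand, 4 of the 6 macrophage markers with an entry held them (Marco, Cd5l, Cd68 and Vsig4), as did 28.3% of all 32851 promoters in the RefSeq table. Among the other classes they were found in 2 of 5 endothelial promoters, 1 of 7 mesenchymal, 2 of 4 biliary and 3 of 5 leukocyte promoters. In all 25 of the 36 markers had an entry, and the other 11 were Csf1r, Cd14, Lyve1, Pecam1, Cdh5, Oit3, Col1a1, Dcn, Krt19, Sox9 and Cd52. A match is a description of letters and not of a bound site.

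Markers were of very unequal abundance once corrected for length. Per kilobase of annotated exons the control level was highest for Dcn, a small proteoglycan of the mesenchyme (60.2 scaled reads per kb), and then for the Kupffer cell genes Cd5l (29.1) and Clec4f (25.7). Lyz2, which encodes the lysozyme of macrophages and granulocytes, stood at 20.9, the endothelial coreceptor Eng at 17.2 and Spp1, which encodes osteopontin, also at 17.2. The ranges over the 3 controls of Cd5l, Clec4f and Lyz2 overlapped, but their order was the same in each control. Per kb they stood at 23.7, 21.8 and 14.5 in control 1 and at 34.6, 31.1 and 27.3 in control 2. At the low end were the duct keratins Krt19 (0.214) and Krt7 (0.071), the T cell gene Cd3e (0.190) and Timp1 (0.010). The 6 markers with a mean value under 1 that were left untested were Acta2, Timp1, Krt19, Krt7, Cd3e and Cd79a. The lymphocyte class was therefore represented in the tests by broad leukocyte genes and not by the T and B cell receptor genes.

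**Figure D2:**
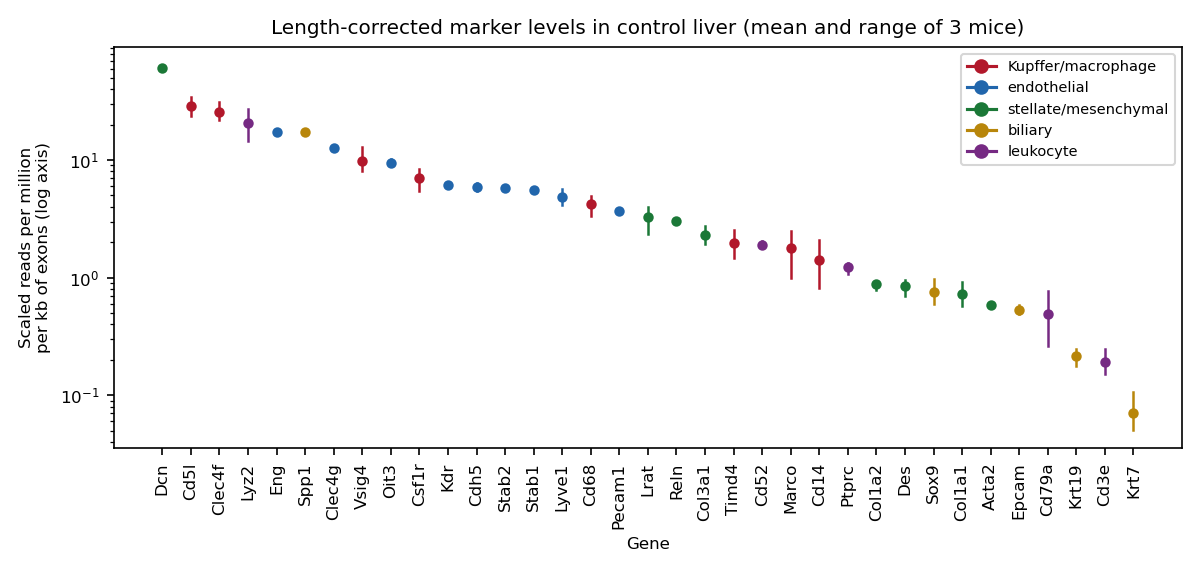
Length-corrected level of 35 markers in control liver, in scaled reads per kb of exons (log axis), ordered from high to low and coloured by cell class. Points are means and lines the range of the 3 controls, and Timp1 is left out because 2 of its 3 control values are 0. Dcn stands at the top and Krt7 at the bottom.

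Kupffer cell and macrophage markers did not separate the groups. None of the 8 was called, and their median log2 fold change was −0.02, with 3 positive and 5 negative. Their summed level was 154, 229 and 187 in the controls and 203, 159 and 192 in L-RalyKO liver. Clec4f, a C-type lectin found in mice on Kupffer cells, had values of 53.9, 76.9 and 60.0 in the controls and of 68.6, 53.4 and 61.9 in L-RalyKO liver. The groups overlapped, and the log2 fold change was −0.04 (95% interval −0.34 to 0.25). Cd5l, which encodes a secreted scavenger protein of tissue macrophages, was at 48.2, 70.5 and 59.2 against 68.0, 51.7 and 64.5 (log2 fold change 0.06, interval −0.26 to 0.38). For this gene the lowest and the highest mouse were both controls. Vsig4, the complement receptor through which Kupffer cells capture bacteria, was at 11.9, 19.0 and 12.9 against 14.5, 13.5 and 14.9 (0.00 on the log2 scale, interval −0.34 to 0.33). Timd4, a phosphatidylserine receptor of long-lived resident macrophages, was at 3.22, 5.58 and 4.03 against 4.04, 3.86 and 4.34 (−0.03, interval −0.38 to 0.31). For both genes the L-RalyKO values fell inside the span of the controls.

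Marco, a scavenger receptor for bacteria, was at 1.97, 4.91 and 3.81 in the controls and at 3.87, 3.34 and 4.29 in L-RalyKO liver. The controls differed 2.50-fold among themselves for this gene, and the interval of its difference was wide (0.13, from −0.38 to 0.64). Csf1r, the receptor for the growth factor on which macrophages depend, had values of 28.8, 44.1 and 37.7 against 36.9, 27.2 and 34.8 (−0.15, interval −0.50 to 0.21). Its estimate was −0.31 without control 1 (limma adjusted p = 0.269), −0.01 without control 2 and −0.02 without L-RalyKO 2. Cd68, a lysosomal protein of all macrophages, was at 4.17, 6.21 and 5.65 against 5.61, 4.82 and 6.21 (0.05, interval −0.26 to 0.37). Both overlapped between groups. Cd14, the coreceptor for bacterial lipopolysaccharide, was at 1.28, 2.10 and 3.30 against 1.45, 1.31 and 1.45. Its L-RalyKO values lay close together near the lowest control, and the difference of −0.38 (interval −0.84 to 0.09) did not pass the limma test (adjusted p = 0.316). It was −0.15 without control 3, −0.61 without control 1 (limma adjusted p = 0.094) and −0.68 with edgeR.

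The macrophage markers moved together from mouse to mouse instead. Control 1 was the lowest control for 8 of 8 and control 2 the highest for 7 of 8, where control 1 was lowest for 32.4% and control 2 highest for 31.5% of all genes tested. L-RalyKO 2 was the lowest of its group for 8 of 8, against 31.6% of all genes. Members of a class share cells and libraries, so these counts are not 8 independent observations. Averaged over the 8 markers, control 1 stood 0.33 below the mean of the controls on the log2 scale and control 2 stood 0.27 above it, while the L-RalyKO mice were at 0.03, −0.19 and 0.03. The class median moved with single mice, being −0.15 without control 1, with 8 of 8 negative, and 0.15 without control 2, with 6 of 8 positive. A further list of 15 macrophage genes, of which 14 were tested, gave the same order, with control 1 lowest for 13 of 14, control 2 highest for 10 of 14 and L-RalyKO 2 lowest for 13 of 14. It included the complement genes C1qa (22.1, 28.1 and 24.1 against 25.5, 20.7 and 25.1), C1qb and C1qc, which macrophages make and for which the groups overlapped.

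**Figure D3:**
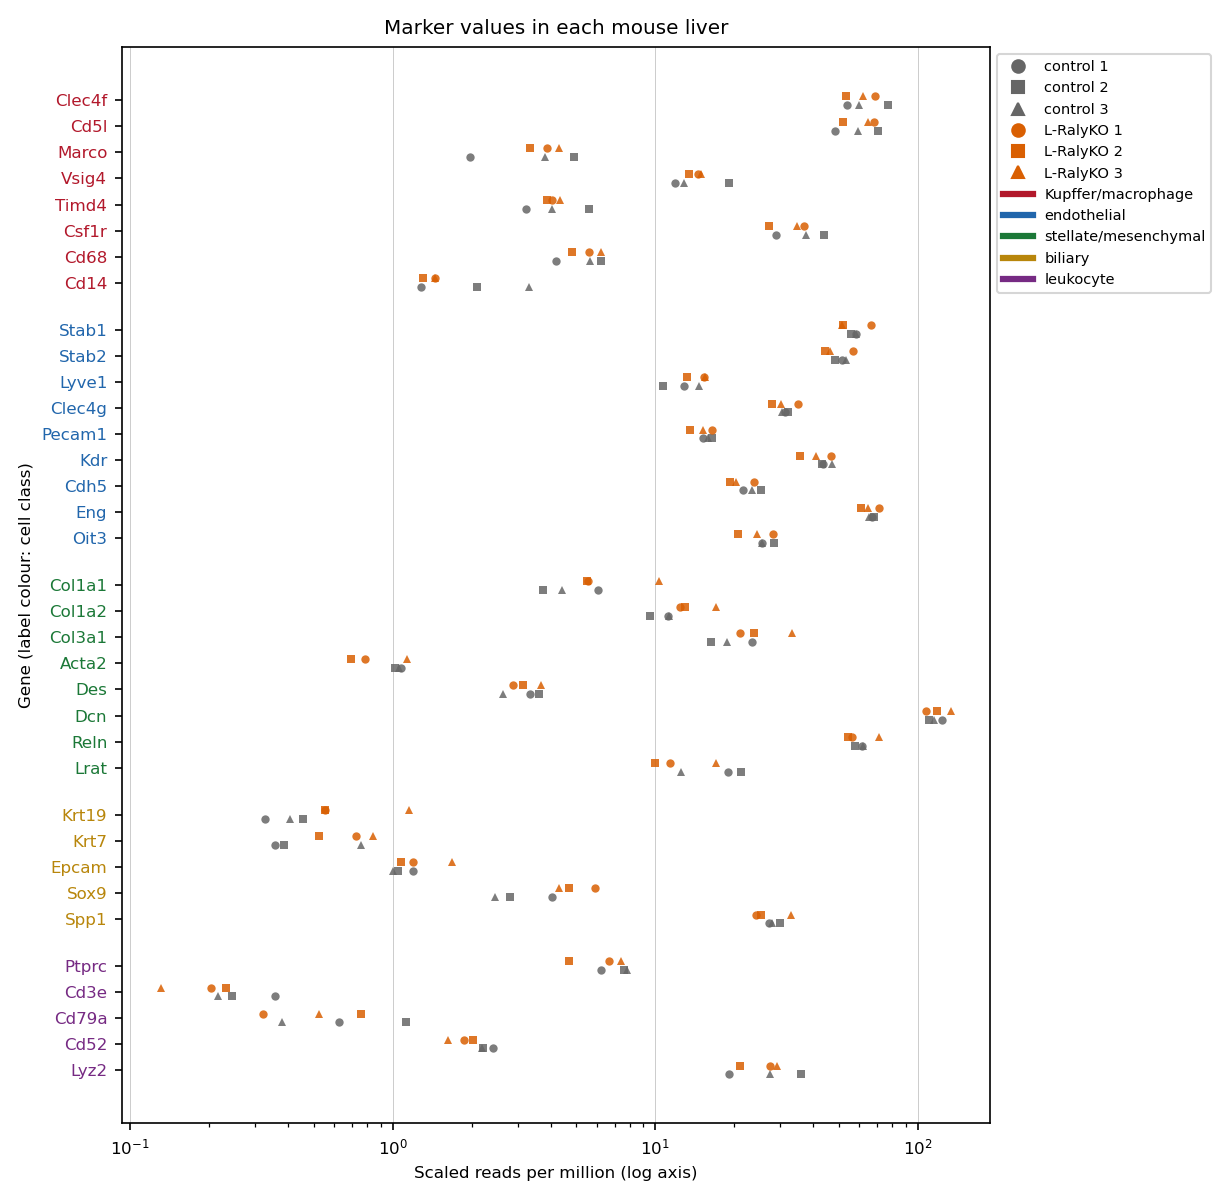
Value of 35 markers in each of the 6 livers (x axis, scaled reads, log axis), grouped by cell class, with controls in grey and L-RalyKO in orange and symbols for mice 1, 2 and 3. Timp1, with 4 reads in all, is not drawn. Control 1 is the lowest control in 8 of 8 macrophage rows, and the groups separate in the rows of Col1a2, Krt19, Sox9 and Cd52.

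Endothelial markers had the narrowest intervals. None of the 9 was called, 8 of 9 estimates were negative, and their median was −0.06. All 9 intervals on log2(value + 1) lay within 1.5-fold. The summed level was 327, 328 and 334 in the controls and 359, 287 and 309 in L-RalyKO liver, so that the L-RalyKO mice stood on both sides of the controls. Eng, which encodes endoglin, a coreceptor for TGF-beta ligands, was at 67.1, 68.0 and 64.9 against 71.0, 60.8 and 64.7 (−0.03, interval −0.17 to 0.11). Stab1 and Stab2 encode the stabilins, scavenger receptors of sinusoidal endothelium. Stab1 had values of 58.4, 55.8 and 58.4 against 66.3, 51.9 and 51.3 (−0.04, interval −0.25 to 0.18), and Stab2 of 51.5, 48.4 and 53.3 against 56.8, 44.2 and 46.2 (−0.06, interval −0.27 to 0.14). In both genes the L-RalyKO mice held the highest and the lowest value. The same was true of Clec4g, a lectin of sinusoidal cells, at 31.1, 32.0 and 30.4 against 34.8, 27.8 and 30.1 (−0.02, interval −0.20 to 0.17).

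Kdr, the main receptor for the vascular growth factor VEGF, was at 43.6, 43.2 and 47.1 against 46.8, 35.7 and 41.0 (−0.12, interval −0.33 to 0.09). Cdh5, the cadherin of endothelial junctions, was at 21.6, 25.3 and 23.3 against 23.8, 19.2 and 20.3 (−0.14, interval −0.35 to 0.06), the lowest estimate of the class. In each of them L-RalyKO 1 lay among the controls. Pecam1, an adhesion molecule of all endothelium, was at 15.2, 16.5 and 15.9 against 16.4, 13.5 and 15.2 (−0.08, interval −0.26 to 0.10). Oit3, a secreted protein gene of sinusoidal cells, was at 25.6, 28.3 and 25.6 against 28.1, 20.6 and 24.5 (−0.12, interval −0.36 to 0.11). The exception in sign was Lyve1, a hyaluronan receptor of sinusoidal and lymphatic endothelium, at 12.9, 10.7 and 14.7 against 15.4, 13.2 and 15.5 (0.19, interval −0.06 to 0.45, limma adjusted p = 0.349). It was 0.08 without control 2 and 0.29 without control 3.

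Within groups the endothelial genes differed mostly among the L-RalyKO mice. L-RalyKO 1 was the highest of its group for 8 of 9 and L-RalyKO 2 the lowest for 8 of 9, whereas the controls lay close together. The median SD on the log2 scale was 0.067 among the controls and 0.160 among the L-RalyKO mice for this class, which was not tested. The class median moved both ways with these mice. Without L-RalyKO 2 it was 0.01, with 5 of 9 positive. Without L-RalyKO 1 it was −0.16, with 8 of 9 negative, and Cdh5, Kdr, Oit3, Stab1 and Stab2 then had an unadjusted limma p under 0.05, all lower, with 0 called (adjusted p of at least 0.203). The share of all genes at such an unadjusted p in that fit is not given here, so nothing is concluded from this count. In a further list of 21 endothelial genes, of which 19 were tested, L-RalyKO 2 was again the lowest of its group for 18 of 19 and L-RalyKO 1 the highest for 15 of 19, and 0 were called (limma, 3 at an unadjusted p under 0.05). These 3, named after their values were seen, were Rspo3, Bmp2 and Sox18. Rspo3, an enhancer of Wnt signalling made by central vein endothelium, was at 5.51, 5.36 and 5.16 against 4.30, 3.77 and 4.05, without overlap, and stood just outside the threshold (−0.33, interval −0.52 to −0.14, limma adjusted p = 0.0503). Without an intensity trend and with total-count scaling limma called Rspo3 (adjusted p = 0.033 and 0.0409). It was not called with DESeq2 (adjusted p = 0.109) or edgeR (adjusted p = 0.0611). Nor did limma call it with a replicate block (adjusted p = 0.0858), without a filter (0.115) or without any 1 of the 6 mice (0.0783 to 0.147). Bmp2, a signal to hepatocytes in iron control, was at 21.6, 20.0 and 17.8 against 17.4, 13.3 and 17.4 (−0.29, limma adjusted p = 0.165). Sox18, an endothelial transcription factor, was at 2.98, 2.73 and 1.92 against 4.71, 3.48 and 3.58 (0.48, limma adjusted p = 0.0926).

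**Figure D4:**
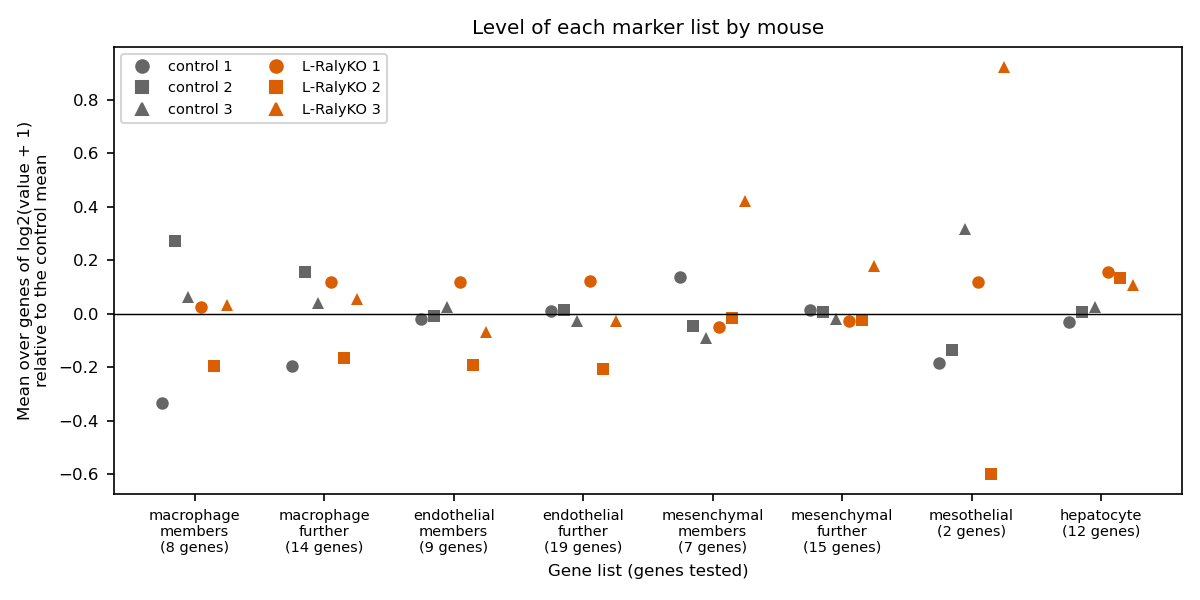
Mean over the tested genes of each list of log2(value + 1) relative to the mean of the controls (y axis), 1 point per mouse, controls in grey and L-RalyKO in orange. Control 1 is low and control 2 high for both macrophage lists, L-RalyKO 2 is lowest for both endothelial lists, and L-RalyKO 3 is highest for both mesenchymal lists and the mesothelial list.

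Stellate and mesenchymal markers split into collagens, with positive estimates, and a retinoid gene with a negative one. None of the 7 tested was called, and their median was 0.03, with 5 positive and 2 negative. Col1a2, which encodes a chain of type I collagen, had values of 11.1, 9.54 and 11.2 in the controls and of 12.4, 13.0 and 17.0 in L-RalyKO liver (10.6 ± 0.959 against 14.1 ± 2.49, SD, n = 3 each). The groups did not overlap. Its log2 fold change was 0.37 (interval 0.10 to 0.64), short of the threshold with limma (adjusted p = 0.105) and past it with DESeq2 (adjusted p = 0.0431). Without L-RalyKO 3 the log2 fold change was 0.24. Col1a1, the other chain of that collagen, was at 6.08, 3.75 and 4.43 against 5.53, 5.48 and 10.3, and Col3a1, a fibrillar collagen of vessel walls and stroma, at 23.3, 16.4 and 18.8 against 21.0, 23.8 and 33.2. In both the groups overlapped and L-RalyKO 3 was the highest mouse. The estimates of 0.46 for Col1a1 and 0.39 for Col3a1 (limma adjusted p = 0.269 and 0.220) became 0.20 for each when L-RalyKO 3 was left out.

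Lrat, the enzyme with which stellate cells esterify retinol for storage, had values of 18.9, 21.2 and 12.5 in the controls and of 11.3, 10.0 and 17.0 in L-RalyKO liver (17.5 ± 4.49 against 12.8 ± 3.71, SD, n = 3 each). In each group 1 mouse lay within the span of the other group. The difference of −0.43 (interval −0.92 to 0.06, limma adjusted p = 0.279) was −0.64 without L-RalyKO 3 or without control 3, and −0.28 without L-RalyKO 2 or without control 2. Reln, which encodes the secreted glycoprotein reelin, made in liver by stellate cells, was at 61.3, 57.5 and 61.7 against 56.1, 54.0 and 71.1 (0.00, interval −0.22 to 0.22). Dcn was at 124, 111 and 115 against 108, 118 and 134 (0.03, interval −0.15 to 0.22). Des, the muscle-type intermediate filament desmin, was at 3.34, 3.61 and 2.62 against 2.88, 3.13 and 3.66 (0.01, interval −0.26 to 0.29). These 3 overlapped throughout, and the signs of Dcn and Des turned negative when the libraries were scaled to equal totals. Acta2, the smooth muscle actin of activated stellate cells and vessel walls, was under the minimum mean of the main test, at 1.07, 1.02 and 1.05 against 0.785, 0.696 and 1.13. With low genes admitted edgeR gave it −0.26 (adjusted p = 0.624). Timp1, a protease inhibitor induced in fibrosis, had 0, 0 and 1 reads in the controls and 1, 0 and 2 in L-RalyKO liver. It lay at or under 3 reads in every library, and no fold is given.

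L-RalyKO 3 was the highest of its group for 7 of 7 tested mesenchymal markers, against 31.0% of all genes, and for 12 of 15 tested genes of a further list of 16. Its mean over the 7 was 0.42 above the controls on the log2 scale, where the other L-RalyKO mice were at −0.05 and −0.02. Without this mouse the class median was −0.05. The same liver was highest for 6 of 6 markers of mesothelium, the cell layer that covers the liver surface. Its summed mesothelial level was 10.2, beside 4.62 and 1.51 in the other L-RalyKO mice and 2.84 to 4.92 in the controls. Msln, which encodes mesothelin, was at 0.566, 0.491 and 0.811 against 1.08, 0.261 and 1.82, and Upk3b, an uroplakin of mesothelium, at 0.686, 0.701 and 1.30 against 0.960, 0.116 and 2.87. The part of surface tissue in the collagen values was not tested.

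Of the further mesenchymal list 1 gene was called. Vipr1, a receptor for vasoactive intestinal peptide, was at 43.9, 44.0 and 44.1 against 51.5, 49.8 and 51.4, without overlap, and rose by 0.21 on the log2 scale (SE 0.05, limma adjusted p = 0.0344). The call was lost without any 1 of the 6 mice (limma adjusted p from 0.0552 to 0.122). It was also lost with a replicate block, without an intensity trend and with total-count scaling (limma adjusted p = 0.062, 0.0691 and 0.0687). Bgn, a small proteoglycan related to Dcn, was at 69.9, 67.7 and 68.3 against 76.6, 73.8 and 82.8, also without overlap (0.18, limma adjusted p = 0.0936). It is named after its values were seen.

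Bile duct markers included Sox9, whose difference was the largest of the 30 tested on log2(value + 1), while edgeR gave Cd14 and Sox9 differences of like size (−0.68 and 0.67). Sox9 is a transcription factor of cholangiocytes that some hepatocytes beside the portal tracts also express. Its values were 4.05, 2.81 and 2.46 in the controls and 5.88, 4.70 and 4.29 in L-RalyKO liver (3.11 ± 0.838 against 4.95 ± 0.823, SD, n = 3 each). The groups did not overlap, and the lowest L-RalyKO mouse lay just above the highest control. The log2 fold change of 0.55 (SE 0.16, interval 0.19 to 0.90) had a limma adjusted p of 0.0774, and a two-sided exact permutation test gave p = 0.1, the smallest that 3 mice against 3 allow. DESeq2 placed it past the threshold (adjusted p = 0.0265) and edgeR did not (adjusted p = 0.0763). With a replicate block limma also called it (adjusted p = 0.0264). Without control 1, the highest control, limma called it (0.71, adjusted p = 0.0375), and without any other mouse it did not (adjusted p from 0.101 to 0.222). Sox9 spans chr11:112643538-112649074 on the + strand of NCBIM37 (mm9), and Col1a2 chr6:4454814-4491543 on the + strand.

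**Figure D5:**
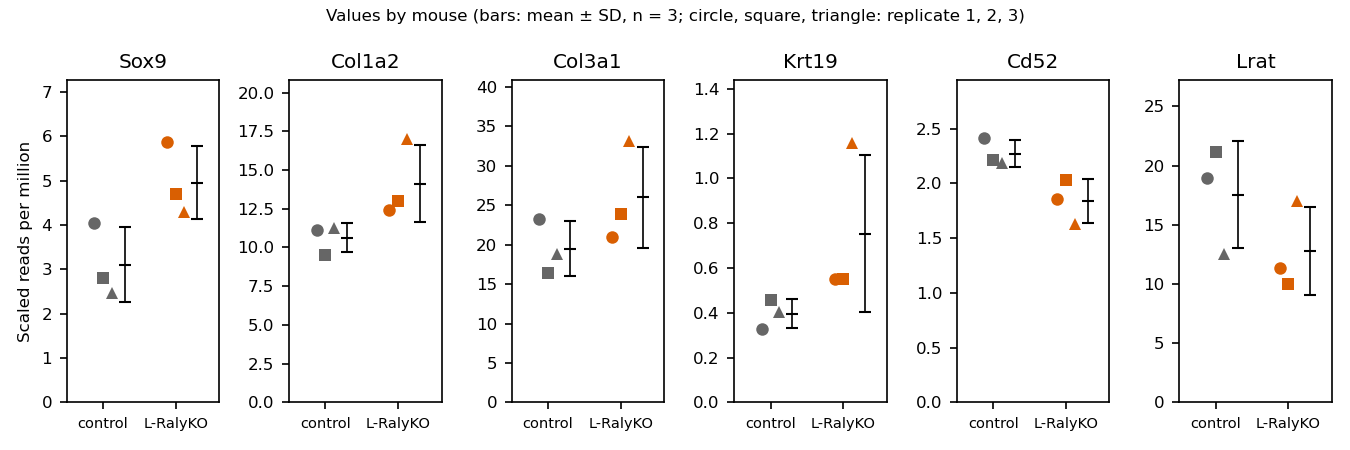
Values of 6 markers in each liver (y axis, scaled reads, from 0), with mean ± SD of 3 mice beside the points. The groups do not overlap for Sox9, Col1a2, Krt19 and Cd52, and they overlap for Col3a1 and Lrat.

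Of the other bile duct markers the keratins and Epcam were low, and Spp1 was not. Krt19, a keratin of duct cells, had 11, 13 and 15 reads in the controls and 19, 19 and 44 in L-RalyKO liver, or values of 0.328, 0.456 and 0.405 against 0.553, 0.551 and 1.16. It did not overlap between groups, and L-RalyKO 3, the mouse highest in mesothelial genes, carried more than the others. Mesothelial cells also express this keratin, and their part in the value was not tested. With the low genes admitted, edgeR gave Krt19 a log2 fold change of 0.94 with an adjusted p of 0.181, where it called 5.72% of 14245 genes. Krt7, a second duct keratin, was at 0.358, 0.386 and 0.757 against 0.727, 0.522 and 0.842 and overlapped (edgeR log2 fold change 0.46, adjusted p = 0.525). Epcam, an epithelial adhesion molecule, was at 1.19, 1.05 and 1.0 against 1.19, 1.07 and 1.68 (0.15, interval −0.15 to 0.44, and 0.04 without L-RalyKO 3 or 0.22 without L-RalyKO 2). Spp1 was at 27.1, 30.0 and 27.9 against 24.1, 25.4 and 33.0 (−0.05, interval −0.30 to 0.20). Neither passed the test, and both were highest in L-RalyKO 3.

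Leukocyte genes had negative estimates for 3 of 3 tested, with a median of −0.19, and 0 were called (limma, 0 at an unadjusted p under 0.05). Without L-RalyKO 2 the median was −0.02, with 1 of 3 positive, and Ptprc stood at −0.02 and Lyz2 at 0.08. Cd52, a surface peptide of lymphocytes and monocytes, was at 2.41, 2.21 and 2.19 against 1.86, 2.03 and 1.63 (2.27 ± 0.124 against 1.84 ± 0.200, SD, n = 3 each). Its groups did not overlap (−0.20, interval −0.44 to 0.03, limma adjusted p = 0.275). It was 1 of 3 tested markers without overlap, the others being Sox9 and Col1a2, where 28.1% of all genes tested had none. Ptprc, which encodes the pan-leukocyte phosphatase CD45, was at 6.20, 7.57 and 7.79 against 6.66, 4.70 and 7.39 (−0.19, interval −0.52 to 0.15). Lyz2 was at 19.0, 35.9 and 27.4 against 27.4, 21.0 and 29.0 (−0.05, interval −0.52 to 0.41) and ranked the mice as the macrophage genes did, with control 1 lowest, control 2 highest and L-RalyKO 2 lowest of its group. Of its 50-base words 15.4% also occur in Lyz1, and how many of its reads this affects was not measured.

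T and B cells were barely represented. Cd3e, part of the T cell receptor complex, had 47 reads over the 6 mice, with values of 0.358, 0.245 and 0.216 against 0.204, 0.232 and 0.132. Cd79a, part of the B cell receptor, had 124 reads and values of 0.626, 1.12 and 0.378 against 0.320, 0.754 and 0.526. Both overlapped between groups, and edgeR with low genes admitted gave −0.53 (adjusted p = 0.568) and −0.37 (adjusted p = 0.697). Of a further 24 leukocyte genes 3 were tested and 0 called (limma, 1 at an unadjusted p under 0.05). That was Cd74, the invariant chain of MHC class II in antigen-presenting cells, at 51.7, 42.7 and 57.4 against 39.7, 26.9 and 40.3, and its partner H2-Aa was at 16.7, 12.5 and 20.7 against 12.9, 9.23 and 15.0. Both are named after their values were seen, and Cd74 did not overlap (−0.51, limma adjusted p = 0.0978), whereas H2-Aa did (−0.40, limma adjusted p = 0.273). DESeq2 called Cd74 (adjusted p = 0.00666) and not H2-Aa (adjusted p = 0.136), and edgeR called neither (adjusted p = 0.207 and 0.394). Without L-RalyKO 2 the differences were −0.32 for Cd74 and −0.21 for H2-Aa, and H2-Aa was at −0.23 without control 3. With low genes admitted edgeR tested 23 of the 24, with 11 positive, 12 negative, a median of −0.04 and 0 called. Of these, 4 are named after their values were seen. Cd4 (0.81, edgeR adjusted p = 0.0956) and Klrb1c (0.85, adjusted p = 0.361) had positive estimates without overlap. Gzma had a positive one with overlap (1.16, adjusted p = 0.261), and Cd2 a negative one without (−1.29, adjusted p = 0.176).

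Across the 5 classes the further lists held 86 genes, of which 55 were tested and 2 called, both higher (limma, 8 at an unadjusted p under 0.05, with 4 higher and 4 lower), where 6.55% of all genes tested were called and 22.7% had such an unadjusted p. Beside Vipr1 this was C6, a terminal complement component listed with Kupffer cells, at 174, 181 and 205 against 276, 255 and 257. It rose by 0.49 (SE 0.07, limma adjusted p = 0.00587) without overlap and was called under all alternatives run. Hepatocytes also make complement proteins, and the cell of origin was not measured. Unlike C6, the 8 macrophage markers and C1qa, C1qb and C1qc overlapped between groups. Of the same further macrophage list Fcer1g, named after its values were seen, also did not overlap. It was lower in L-RalyKO liver and was not called (−0.24, limma adjusted p = 0.233).

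Markers of tissue outside the 5 classes were also examined. Of 12 hepatocyte genes 2 were called, both higher, the transcription factor Hnf4a (520, 542 and 680 against 900, 809 and 829, log2 fold change 0.55, limma adjusted p = 0.0155) and Tdo2, which degrades tryptophan (0.37, limma adjusted p = 0.0265), against 6.55% of all genes. DESeq2 called 5, the others being Apoa1, Trf and Ahsg, against 9.25% of all genes (4.69% higher). Without a filter limma called Hnf4a and not Tdo2. The estimates were positive for 9 of 12, and the mean over the list was 0.156, 0.135 and 0.108 above the controls in the L-RalyKO mice. Of 8 genes listed for fat tissue 4 were tested and 2 called, both lower, Cfd (12.6, 2.73 and 3.46 against 0.204, 1.10 and 0.132, fell by 2.10, limma adjusted p = 0.0318) and Car3 (fell by 0.77, limma adjusted p = 0.0189), and the defining fat cell genes Adipoq, Lep, Retn and Plin1 had values of at most 0.209 in any liver. Liver expresses Car3 itself. Cfd had a larger fall with edgeR (−3.73) and DESeq2 (−3.71, adjusted p = 0.0111). Its call was lost with edgeR (adjusted p = 0.149) and with limma without an intensity trend (adjusted p = 0.0589), and both calls were lost with limma without a filter (adjusted p = 0.0685 for Cfd and 0.0541 for Car3). Leaving out mice 1 at a time ended the call of Hnf4a (without L-RalyKO 1, control 1 or control 2, adjusted p up to 0.0617), of Tdo2 (without L-RalyKO 1 or 3 or control 1 or 2, up to 0.0959), of Cfd (without L-RalyKO 1 or 3, up to 0.101) and of Car3 (without L-RalyKO 2 or 3 or control 1 or 2, up to 0.0642), all with limma. Of 6 genes of the exocrine pancreas 4 were at 0 in all 6 livers. The summed level of 5 red cell genes was 706 to 1182 in the controls and 686 to 1358 in L-RalyKO liver, with 0 of 5 called (limma, 0 at an unadjusted p under 0.05).

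The tested markers had a larger median SD between mice of a group than all genes tested. The genes were not matched for level, and markers of a class share cells, so this describes the listed genes only. The median SD within groups was 0.179 on the log2 scale over the 30 tested markers and 0.094 over all genes, reaching 0.243 for the macrophage class. L-RalyKO 2 was the lowest mouse of its group for 22 of 30 markers and for 41 of 55 further class markers. Classes differed in the order of the controls, since control 1 was lowest for 8 of 8 macrophage markers but for 3 of 9 endothelial and for 0 of 7 mesenchymal ones.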

How the data were processed

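Liver RNA-seq of 3 L-RalyKO and 3 control mice was analysed, although the study describes 1 more mouse per group for this experiment, and the ATAC-seq and ChIP-seq experiments were not analysed here. The methods give KAPA stranded paired-end libraries aligned with TopHat to mm9, and the submitters' notes name Cufflinks 2.0.2 for FPKM values. The values the authors deposited are instead a normalized signal, read counts scaled to library size, and the tool that made them is not given in the sources used here. All values (100%) were whole multiples of the value of 1 read within a tolerance of 0.01 reads, so reads were recovered, and their scaling factors equalled TMM factors computed with edgeR. Each column was assigned to a mouse from the virus and the number in its name.

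The main test was limma (version 3.58.1, R 4.3.3) with an intensity trend, applied to log2(value + 1) of the 11580 genes whose mean reached 1, with Benjamini-Hochberg adjustment. Alternatives were edgeR 4.0.16, DESeq2 1.42.0, other scalings, filters and pseudocount (0.1), a replicate block and leaving out each mouse. The edgeR test of genes with a mean of at least 0.1, which admits low members, was chosen after seeing the data. Fits were tested on simulated data first. For pairs of mice of a group the chi-square of their reads was 12.6 to 84.3 times its degrees of freedom, so none was counted as a duplicate. Positions of genes and exon lengths are from GENCODE vM1 on NCBIM37 and promoters from RefSeq on GRCm38.p6, which were not combined. The members and gene lists were chosen with earlier results of these data known, so no test was made over the list as a whole. All members are named, of the other lists the genes at adjusted p under 0.05 and any said to be named after seeing its values, with C1qa, C1qb, C1qc, Msln, Upk3b and the defining fat cell genes named as list members beside a result. Nothing in the labels ties the replicates to litters or days. The further list of biliary genes is not reported here on its own.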

Additional observations from a re-analysis of the deposited data

How the results depend on the processing

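Under the alternatives 0 of 30 tested markers passed an adjusted p of 0.05 except with DESeq2 (2, both higher), with a replicate block (1, higher) and in some leave-one-mouse-out fits (0 to 1, higher, the call being Sox9 without control 1), and 0 were lower under any. Over all genes the calls were 758, or 484 without a filter and 332 to 813 when mice were left out. Of the further class markers 2 were called (C6 and Vipr1), 3 with DESeq2 (with Cd74), 3 with a replicate block (C6, Cd74 and H2-Aa, limma adjusted p = 0.0122 and 0.0228 for the latter pair), 2 without an intensity trend or with total-count scaling (C6 and Rspo3) and 1 to 2 when mice were left out. Of 480 member values under alternatives 443 kept sign and side of the threshold. Scaling to equal totals moved the median of all genes to −0.03 and turned Des to −0.0116 and Dcn to −0.000288. Reln was 0.00667 with edgeR, 0.00668 with edgeR and the lower filter and 0.00629 with DESeq2. The other sign changes came with leaving out single mice, where the log2 fold changes ranged from −0.15 to 0.10 for Clec4f, −0.0821 to 0.19 for Cd5l, −0.15 to 0.35 for Marco, −0.13 to 0.19 for Vsig4, −0.18 to 0.14 for Timd4, −0.0862 to 0.15 for Cd68, −0.16 to 0.0273 for Stab1, −0.17 to 0.00563 for Stab2, −0.10 to 0.0555 for Clec4g, −0.0857 to 0.0242 for Eng, −0.0869 to 0.0873 for Des, −0.0470 to 0.11 for Dcn, −0.12 to 0.0704 for Reln, −0.19 to 0.0332 for Spp1 and −0.28 to 0.16 for Lyz2. The cause was not tested. Without a filter or with a mean of at least 0.1, Krt19 joined the markers without overlap, making 4 in place of 3.

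The replicate block used the numbers in the labels, which nothing ties to a litter or day. Same-numbered mice did not deviate together (r = 0.07, −0.02 and 0.02 over 11580 genes), and not every mouse correlated best with its own number. With the block 704 genes (6.08%) and 1 marker were called, Sox9 (limma adjusted p = 0.0264), where the fit without it called 758 and 0. The few mice limit these comparisons, and markers with few reads (Timp1, Cd3e, Krt19, Krt7 and Cd79a) are limited by both.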
